A study of Mus musculus with 6 samples.

Results

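The Ly6 surface protein genes are 7 members of the lymphocyte antigen 6 family, taken by gene name from the deposited count table: Ly6a, Ly6c1, Ly6c2, Ly6d, Ly6f, Ly6g and Ly6i. They are 7 of the 54532 genes in that table. RNA came from MB49, a male mouse bladder cancer cell line, which the labels also list under the tissue MB49 Tumor. The 3 Y-KO libraries are labelled as a CRISPR knockout of Y, and their control, the 3 Y-Scr libraries, came from cells given a guide RNA without a target. Per the labels' protocols, transduced cells of the study were sorted on the fluorescent protein tRFP and grown up from single cells, and all 6 libraries are in batch 1. No source used here names the Y-KO guide. Whether the 3 libraries within a group stem from different cultures or clones is not stated, so p-values measure only the spread between these libraries, which may be technical, and a difference between clones and an effect of Y cannot be told apart.

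Ly6 genes encode small proteins with a compact fold of disulfide-held loops, and most of them sit on the outer face of the cell membrane through a glycosylphosphatidylinositol (GPI) anchor. In mice several are used as markers on blood cells: Ly6a is Sca-1, a marker of blood stem cells that is also found on other stem and tumour cells, Ly6c marks monocytes, and Ly6g marks neutrophils. Interferons are known to raise Ly6a and Ly6c in mouse cells, and Ly6d is known from lymphocytes and squamous epithelium.

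The labels were first checked against the libraries. The Y-linked genes Ddx3y, Eif2s3y, Kdm5d and Uty had 0, 0, 0 and 0 counts over the Y-KO libraries and 8525, 7252, 3653 and 3296 counts over the Y-Scr libraries. The libraries held 15698510 to 24633158 counts. The epithelial keratin gene Krt8 averaged 2816 ± 142 CPM (counts scaled to library size) in Y-KO and 2188 ± 67.3 CPM in Y-Scr, and Krt18 averaged 1351 ± 19.7 CPM in Y-KO and 1326 ± 121 CPM in Y-Scr (SD, n = 3 each), while Krt20, Upk3a, Cdh1 and Epcam, markers of differentiated urothelium or epithelium, had 0 counts in all 6 libraries. Of the 15 urothelial and epithelial markers these 4 had 0 counts throughout and 5 were tested. Krt8 (0.36 ± 0.06) and Krt19 (2.37 ± 0.23, 7.53 ± 0.574 CPM in Y-KO and 1.42 ± 0.371 CPM in Y-Scr) rose, Gata3 (-1.48 ± 0.21, 2.81 ± 0.768 CPM in Y-KO and 7.80 ± 0.333 CPM in Y-Scr) fell, and Krt18 and Foxa1 (0.35 ± 0.14) did not pass, though Foxa1 passed under several settings and Krt18 with the trend on gene length removed (0.24). The list summed to 4030 to 4330 CPM in Y-KO and 3360 to 3730 CPM in Y-Scr, and its part in the results below was not tested. Because several of the 7 genes mark blood cells elsewhere, the markers of such cells were read as well. The pan-leukocyte gene Ptprc and the myeloid gene Itgam had 0 counts in every library. Of 6 leukocyte markers, Ptprc was the only 1 at 0 throughout, and 0 were tested. That list summed to 0.311 to 1.07 CPM in Y-KO and to 0.627 to 1.08 CPM in Y-Scr. Of 7 endothelial markers, also read, 1 was tested and 0 were called. Their sum ran from 1.76 to 2.42 CPM in Y-KO and from 2.06 to 2.55 CPM in Y-Scr. Of 11 lymphocyte markers, 9 had 0 counts throughout, and of 11 neutrophil markers 5 did. The summed level of the neutrophil markers ran from 0.187 to 2.58 CPM in Y-KO and from 0 to 0.484 CPM in Y-Scr, with the highest sum, 48 counts, in Y-KO 1. That of the lymphocyte markers ran from 0.0622 to 0.269 CPM in Y-KO and from 0 to 0.181 CPM in Y-Scr. Of the monocyte and macrophage markers, 2 of 11 had 0 counts throughout, and the list summed to between 143 and 153 CPM in Y-KO and to between 221 and 231 CPM in Y-Scr. Nearly all of that came from Cd14, Cd68 and Mrc1, which all fell (log2 fold changes of -0.56, -0.17 and -2.33). The call of Cd68 was lost under several settings, and it stood at 0.04 with the trend on gene length removed. The part of these 3 genes in the results below was not tested, and in RNA from a whole culture fewer cells of a kind and less RNA per cell cannot be told apart.

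The coding sequences of 6 of the 7 members begin almost alike, which bears on how far their reads can be told apart. Their first 60 coding bases, from the GENCODE M21 principal transcripts (GRCm38, 5′ to 3′ on the coding strand), follow with capitals at each base that differs from Ly6c1.
Ly6c1: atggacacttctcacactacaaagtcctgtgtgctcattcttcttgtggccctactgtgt
Ly6c2: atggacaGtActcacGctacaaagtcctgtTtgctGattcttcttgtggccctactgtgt
Ly6a: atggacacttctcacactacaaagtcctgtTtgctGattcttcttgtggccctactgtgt
Ly6i: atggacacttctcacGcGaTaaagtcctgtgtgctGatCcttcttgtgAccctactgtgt
Ly6g: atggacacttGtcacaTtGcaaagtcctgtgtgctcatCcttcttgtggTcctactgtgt
Ly6f: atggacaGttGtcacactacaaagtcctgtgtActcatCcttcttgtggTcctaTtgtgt
Over this stretch Ly6a differed from Ly6c1 at 2 bases and Ly6c2 at 5. Over the whole coding sequence the order was the other way round: Ly6c1 and Ly6c2 were identical at 97.7% of 393 aligned bases, with 9 mismatches, and Ly6c1 and Ly6a at 81.8%. Ly6a and Ly6i shared 86.3% and Ly6g and Ly6f 82.6%. Ly6d stood apart, with 47.6% to 50.8% identity to the other 6. Of all windows of 50 bases in the protein-coding transcripts, 31.2% of those of Ly6c2 were also found in a transcript of another gene, as were 25.6% of those of Ly6c1 and 19.0% of those of Ly6a. For Ly6i the share was 4.8%, for Ly6g 0.4%, and for Ly6d and Ly6f 0.0%. No source used here says how the counting treated reads that match several genes, so the counts of Ly6a, Ly6c1 and Ly6c2 are uncertain to that extent.

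All 7 members were tested, and 5 of them, Ly6a, Ly6c1, Ly6c2, Ly6g and Ly6i, fell in Y-KO, while 0 rose. Ly6i could be tested only because it is higher in Y-Scr, and without it 4 of 6 members fell. Ly6f and Ly6d had lower means in Y-KO without passing the test. The test was edgeR's quasi-likelihood test over 12907 genes, with Benjamini-Hochberg adjustment and a threshold of 0.05. In the same fit 23.0% of all genes tested were called lower, 20.7% were called higher and 43.6% were called in either direction. The median log2 fold change (Y-KO minus Y-Scr) was -0.86 over the 7 members, Ly6i included, and -0.01 over all genes tested. Summed over the members, the libraries held 698 to 711 CPM in Y-KO and 1283 to 1420 CPM in Y-Scr, with no overlap.

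**Figure D1:**
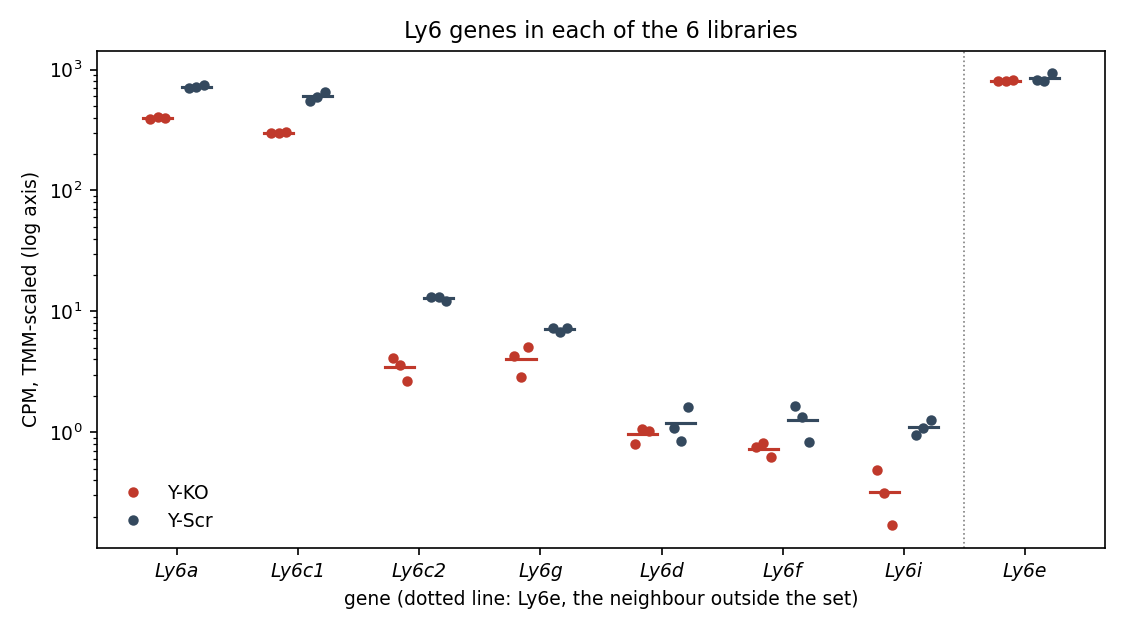
Level of each Ly6 member, and of the neighbouring family gene Ly6e, in CPM on TMM-scaled library sizes (log axis), with 1 point per library and a bar at the mean of 3 libraries. Ly6a, Ly6c1, Ly6c2, Ly6g, Ly6f and Ly6i lie lower in every Y-KO library than in any Y-Scr library, while the groups overlap for Ly6d and Ly6e.

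Ly6a, the Sca-1 gene (ENSMUSG00000075602, chromosome 15, 74994877 to 74998031, minus strand, GRCm38), was the most abundant member. It stood at 391, 404 and 397 CPM in the Y-KO libraries, against 707, 711 and 740 CPM in the Y-Scr libraries. The groups were far apart relative to their spread, with means of 397 ± 6.48 CPM in Y-KO and 719 ± 17.9 CPM in Y-Scr (SD, n = 3 each). Ly6a fell by 0.86 ± 0.06 (SE) on the log2 scale, to 55.2% of the Y-Scr level (adjusted p = 7.8e-10, edgeR). Of all genes tested, 6.05% had a more negative change.

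Ly6c1 (ENSMUSG00000079018, chromosome 15, 75044018 to 75048830, minus strand), 1 of the pair of genes behind the Ly6C antigen of monocytes and other cells, was the second most abundant. It stood at 297, 297 and 305 CPM in Y-KO and at 552, 597 and 657 CPM in Y-Scr. The Y-KO libraries lay close together, while the Y-Scr libraries spread more widely and all lay above them. Ly6c1 fell by 1.01 ± 0.07 (SE), to 49.8% of the Y-Scr level (adjusted p = 5.5e-10, edgeR).

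Ly6c2 (ENSMUSG00000022584, chromosome 15, 75108158 to 75111970, minus strand), the other Ly6C gene and the one known for inflammatory monocytes, was present at far fewer counts. It had 77, 58 and 47 counts in Y-KO and 208, 216 and 291 counts in Y-Scr, which is 4.14, 3.61 and 2.66 CPM in Y-KO and 13.2, 13.1 and 12.2 CPM in Y-Scr. The lowest Y-Scr library thus lay well above the highest Y-KO library. It fell by 1.88 ± 0.18 (SE), to 27.2% of the Y-Scr level (adjusted p = 7.0e-08, edgeR), and 1.5% of genes tested had a more negative change. Summed with Ly6c1 into 1 feature, because reads of the pair can be exchanged, the 2 genes fell by 1.02 (adjusted p = 4.0e-10, edgeR), a value set almost wholly by Ly6c1.

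Ly6g (ENSMUSG00000022582, chromosome 15, 75155240 to 75159126, plus strand), the neutrophil marker gene, had 79, 46 and 90 counts in Y-KO and 115, 112 and 175 counts in Y-Scr. In CPM these were 4.24, 2.86 and 5.10 in Y-KO and 7.28, 6.78 and 7.31 in Y-Scr, so the groups did not overlap, though the Y-KO libraries spread over a wide range. Ly6g fell by 0.80 ± 0.21 (SE), to 57.4% of the Y-Scr level (adjusted p = 0.0037, edgeR). Of its windows of 50 bases, 0.4% were also found in a transcript of another gene. The 11 other neutrophil markers summed to 0.187 to 2.58 CPM in Y-KO and 0 to 0.484 CPM in Y-Scr, and 0 of them were tested. The part of shared reads or of such cells in the change of Ly6g was not tested.

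The remaining 3 members were near the limit of detection, where 3 counts correspond to 0.125 to 0.19 CPM per library. Ly6i (ENSMUSG00000022586, chromosome 15, 74979534 to 74983430, minus strand), a close relative of Ly6a known from bone marrow cells, had 9, 5 and 3 counts in Y-KO and 15, 18 and 30 in Y-Scr. It fell by 1.75 ± 0.50 (SE) (adjusted p = 0.0083, edgeR). Its 17 counts in Y-KO against 63 in Y-Scr gave a depth-adjusted ratio of 0.290, with an exact 95% interval of 0.159 to 0.502 that covers counting error only. Ly6i passed the expression filter through its Y-Scr libraries alone, since 0 of its Y-KO libraries and 3 of its Y-Scr libraries reached 0.582 CPM before scaling, so a gene this low could be tested only if it was higher in 1 group. Without Y-KO 3 it stood at -1.44 (adjusted p = 0.0568, edgeR).

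Ly6f (ENSMUSG00000022583, chromosome 15, 75268421 to 75272235, plus strand) had 14, 13 and 11 counts in Y-KO and 26, 22 and 20 in Y-Scr. Its CPM values did not overlap between groups, at 0.752, 0.809 and 0.623 in Y-KO and 1.65, 1.33 and 0.835 in Y-Scr, but its change of -0.77 ± 0.42 (SE) did not pass (adjusted p = 0.154, edgeR). Its depth-adjusted ratio of 0.601 had an exact 95% interval of 0.393 to 0.907 for counting error only. Ly6d (ENSMUSG00000034634, chromosome 15, 74762056 to 74763620, minus strand) had 15, 17 and 18 counts in Y-KO and 17, 14 and 39 in Y-Scr, and its groups overlapped. It stood at -0.33 ± 0.40 (adjusted p = 0.536, edgeR), or at -0.003 without Y-Scr 3, which held most of its Y-Scr counts. The depth-adjusted ratio of Ly6d was 0.768, with an interval of 0.523 to 1.12, so that no difference in Ly6d was detectable at this depth. Groups without overlap and with Y-KO lower were found for 6 of the 7 members and for 27.5% of all genes tested. Ly6i, which could be tested only through its Y-Scr libraries, is among the 6. Over all genes tested, 52.9% had no overlap in either direction.

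Per length of the gene, the members formed a high pair and a low rest. In RPKM (CPM per 1000 bases of deposited gene length), Ly6a averaged 329 ± 5.38 in Y-KO and 597 ± 14.8 in Y-Scr, and Ly6c1 averaged 179 ± 2.78 in Y-KO and 359 ± 31.2 in Y-Scr. In Y-Scr, 0.612% of the genes tested had a higher level per length than Ly6a and 1.14% a higher one than Ly6c1. Ly6g followed at 4.32 ± 1.20 RPKM in Y-KO and 7.56 ± 0.318 in Y-Scr. Ly6c2 stood at 1.27 ± 0.273 RPKM in Y-KO and 4.67 ± 0.203 in Y-Scr, and Ly6d at 1.29 ± 0.183 RPKM in Y-KO and 1.59 ± 0.541 in Y-Scr. Ly6f stood at 0.829 ± 0.109 RPKM in Y-KO and 1.45 ± 0.465 in Y-Scr, and Ly6i at 0.278 ± 0.136 RPKM in Y-KO and 0.949 ± 0.132 in Y-Scr. Ly6d, Ly6f and Ly6i did not separate from one another beyond their spread in Y-Scr, except Ly6d from Ly6i, and in Y-KO the same held for Ly6c2 and Ly6d. The place of Ly6c2 rests on the length used: its deposited length of 2740 bases is far above the 822 bases of its principal transcript, by which it stood at 4.22 RPKM in Y-KO and 15.6 in Y-Scr. On the same scale Ly6g stood at 4.32 in Y-KO and 7.57 in Y-Scr.

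Whether the members differed by like amounts was measured within each library as the count of a gene per 1000 counts of Ly6a. Ly6c1 stood at 761, 735 and 769 in Y-KO and at 781, 839 and 887 in Y-Scr. The groups did not overlap, but the mean log2 ratio differed by only -0.15. Ly6c2 stood at 10.6, 8.94 and 6.71 in Y-KO and at 18.6, 18.4 and 16.4 in Y-Scr, a difference of -1.05 in mean log2 ratio. Against Ly6c1, its near copy, the difference was -0.90, with log2 ratios of -6.46 ± 0.35 in Y-KO and -5.55 ± 0.19 in Y-Scr (SD, n = 3 each). Ly6i stood at 1.24, 0.771 and 0.428 in Y-KO and at 1.34, 1.53 and 1.69 in Y-Scr, a difference of -1.03 in mean log2 ratio. That ratio rests on few counts of Ly6i, a gene that could be tested only through its Y-Scr libraries. The ratios of Ly6g (0.01), Ly6f (0.10) and Ly6d (0.60) to Ly6a overlapped between groups. Each ratio whose groups did not overlap had p = 0.1 in an exact two-sided permutation test, or 0.16 after Benjamini-Hochberg adjustment over the 8 ratios computed. That p is the smallest that 3 libraries against 3 allow, so no ratio could pass 0.05.

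**Figure D2:**
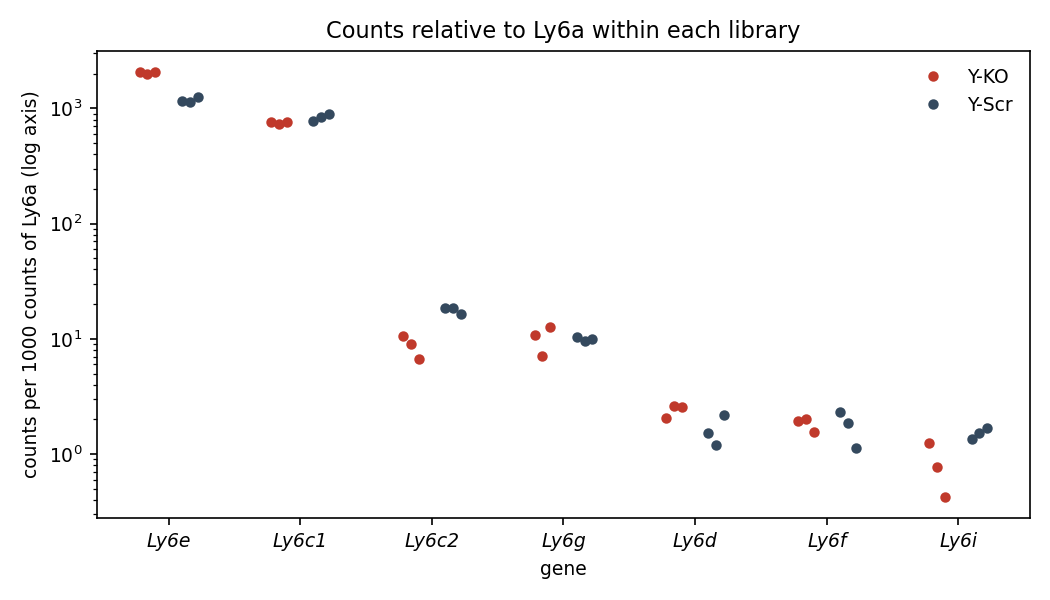
Counts of each gene per 1000 counts of Ly6a in the same library (log axis), with 1 point per library, for Y-KO and Y-Scr. Ly6c2 and Ly6i lie lower relative to Ly6a in every Y-KO library, Ly6g and Ly6f overlap, and Ly6e, a neighbour outside the set, lies higher in every Y-KO library. Ly6i has few counts and could be tested only through its Y-Scr libraries.

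Of the counts summed over the 7 members, Ly6a took 56.2% ± 0.63 in Y-KO and 53.6% ± 1.49 in Y-Scr, and Ly6c1 took 42.4% ± 0.533 in Y-KO and 44.7% ± 1.61 in Y-Scr (SD, n = 3 each). The share of Ly6c2 was 0.492% ± 0.11 in Y-KO and 0.955% ± 0.0879 in Y-Scr. Each of these 3 shares had p = 0.1 in an exact two-sided permutation test, or 0.14 after adjustment over the 7 shares.

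On chromosome 15 the 7 members span 510.2 kb, in the order Ly6d, Ly6i, Ly6a, Ly6c1, Ly6c2, Ly6g and Ly6f, and none of them overlaps another gene of the table. The members that fell lie next to one another, from Ly6i to Ly6g, where the end at Ly6i rests on a gene that was testable only through its Y-Scr libraries and that lost its call without Y-KO 3 (-1.44). Ly6e (74955051 to 74959905, plus strand), a family gene that is also known to respond to interferon, lies between Ly6d and Ly6i and just outside that run. It stood at 811, 801 and 812 CPM in Y-KO and at 820, 807 and 930 CPM in Y-Scr, and the groups overlapped. Its change of -0.08 ± 0.06 (SE) did not pass (adjusted p = 0.359, edgeR) and stood at 0.02 with the trend on gene length removed. Per 1000 counts of Ly6a, Ly6e stood at 2070, 1980 and 2050 in Y-KO and at 1160, 1130 and 1260 in Y-Scr, higher in all 3 Y-KO libraries (p = 0.1, exact permutation test).

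**Figure D3:**
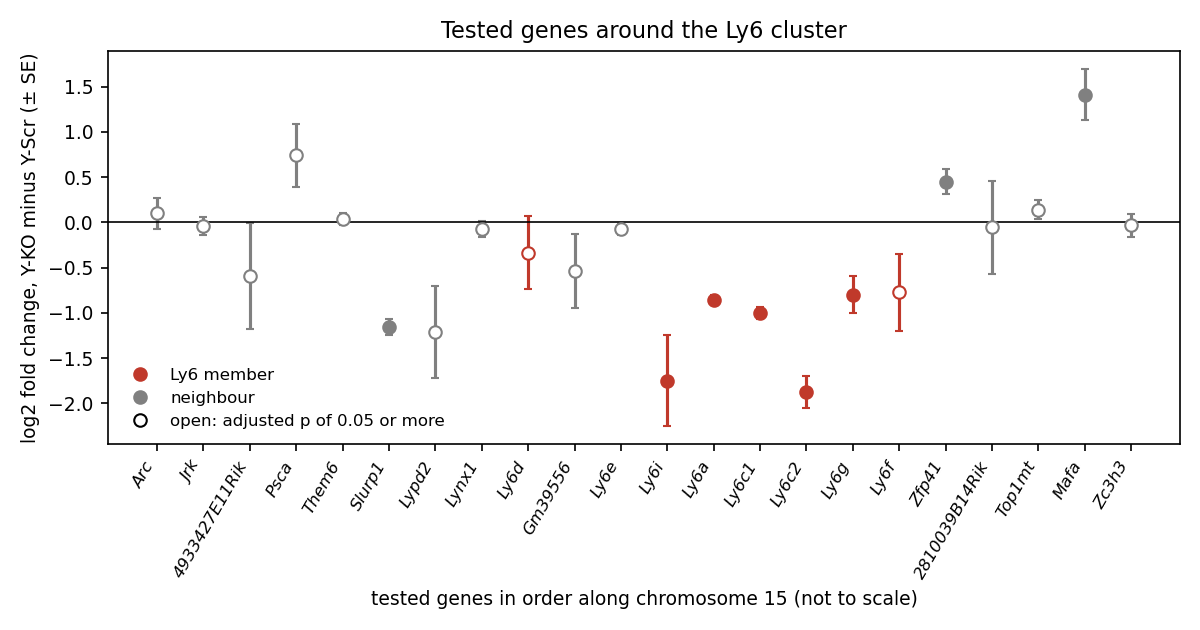
Log2 fold change (Y-KO minus Y-Scr, with its SE) of the 22 tested genes within 500 kb of the Ly6 span, in order along chromosome 15 and not to scale. The run from Ly6i to Ly6f lies below 0, with Ly6f not past the threshold, while Ly6e beside it lies near 0 and Slurp1 lies at -1.16.

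Of 10 neighbours tested within 200 kb, 1 was called. Slurp1 (74724318 to 74728034, minus strand), which encodes a secreted Ly6-type protein of skin, stood at 18.3, 20.2 and 18.4 CPM in Y-KO and at 40.7, 41.7 and 44.3 CPM in Y-Scr. It fell by 1.16 ± 0.09 (SE) (adjusted p = 7.2e-09, edgeR). Its end overlaps Them6 on the opposite strand, and whether reads were counted by strand is not stated, so reads of the overlap cannot be assigned. Them6 itself stood at 0.03 ± 0.07. The others that did not pass were Arc (0.10), Jrk (-0.04), its antisense gene 4933427E11Rik (-0.59), Psca (0.74), Lypd2 (-1.21), Lynx1 (-0.07), the non-coding RNA Gm39556 (-0.54) and Ly6e. Over the whole window of 500 kb to either side, 1 of 15 tested neighbours fell and 2 rose, with a median of -0.04, so that 20% were called, against 43.6% over all genes. The 2 that rose were Mafa (1.41 ± 0.29), a transcription factor gene 473.3 kb away, and Zfp41 (0.45 ± 0.14), which lost its call without Y-KO 2 (0.39) or Y-Scr 3 (0.34). With the trend on gene length removed, Psca (0.94), Them6 (0.24) and Top1mt (0.33) were called as well.

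RefSeq promoter windows (GRCm38.p6, 250 bases before to 50 after an annotated start) were at hand for 4 of the 7 members, Ly6c1, Ly6c2, Ly6g and Ly6f. The first window of each of the 3 that fell is printed 5′ to 3′ on the gene's strand, to show how alike these windows are in genes with unequal falls. Capitals mark TATAAA, the letters of a TATA box.
Ly6c1 (chr15:75048788-75049087, minus strand): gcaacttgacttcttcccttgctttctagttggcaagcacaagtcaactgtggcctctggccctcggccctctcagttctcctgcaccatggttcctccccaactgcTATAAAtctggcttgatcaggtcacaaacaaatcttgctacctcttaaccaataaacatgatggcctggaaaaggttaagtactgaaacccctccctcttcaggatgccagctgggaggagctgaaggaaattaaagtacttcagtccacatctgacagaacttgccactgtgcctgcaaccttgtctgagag
Ly6c2 (chr15:75111922-75112221, minus strand): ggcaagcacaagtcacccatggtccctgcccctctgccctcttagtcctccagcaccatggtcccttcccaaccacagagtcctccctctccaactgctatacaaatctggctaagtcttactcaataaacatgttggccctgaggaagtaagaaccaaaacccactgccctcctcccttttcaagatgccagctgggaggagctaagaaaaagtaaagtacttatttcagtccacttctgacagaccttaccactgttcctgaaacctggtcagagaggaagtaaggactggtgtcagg
Ly6g (chr15:75155011-75155310, plus strand): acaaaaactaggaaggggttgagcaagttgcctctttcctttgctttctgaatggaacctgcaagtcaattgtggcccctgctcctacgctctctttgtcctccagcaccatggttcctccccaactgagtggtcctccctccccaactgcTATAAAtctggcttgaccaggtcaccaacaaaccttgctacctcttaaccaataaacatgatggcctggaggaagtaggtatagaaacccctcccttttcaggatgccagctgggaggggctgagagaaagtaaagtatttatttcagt
Aligned with free ends, the windows of Ly6c1 and Ly6c2 were identical at 73.8% of 282 columns, those of Ly6c1 and Ly6g at 76.3%, and those of Ly6g and Ly6f at 87.4%. TATAAA was found in a window of Ly6c1, Ly6g and Ly6f and in no window of Ly6c2, and 13.6% of 32851 promoter windows held it. In the first windows it began at -143 from the annotated start for Ly6c1, -99 for Ly6g and -169 for Ly6f. The other motifs searched on both strands were the interferon-stimulated response element (GAAA, any 2 bases, GAAA, in 3.4% of all windows), a STAT site (TTC, any 3 bases, GAA, 8.3%), an NF-kB site (GGG, any 3 bases, TTCC, 5.6%) and an AP-1 site (TGANTCA, 7.8%). Of these, the NF-kB letters were found in the second window of Ly6c1 and of Ly6c2 and the other 3 motifs in no window of the 4 genes. No match overlapped another motif. A match is only a match of letters, and no match says nothing of binding elsewhere.

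Beyond the 7 members, 34 of 40 listed genes of the wider Ly6 family were in the table, of which 9 had 0 counts in all 6 libraries and 9 were tested. Of those, 3 fell and 0 rose, with a median of -0.54. The share called was 33.3%, all of it lower. Over all genes, 23.0% were called lower and 43.6% in either direction, and a share of 9 genes is a rough one. Plaur, the receptor of the protease urokinase, stood at 158, 150.5 and 161 CPM in Y-KO and at 255, 277 and 274 CPM in Y-Scr. Its groups did not overlap, and it fell by 0.78 ± 0.06 (SE) (adjusted p = 7.0e-09, edgeR). Lypd6b, whose product modulates acetylcholine receptors, fell by 0.87 ± 0.26 (adjusted p = 0.0102), and Slurp1 was the third. Psca, prostate stem cell antigen, averaged 1.94 ± 0.295 CPM in Y-KO and 1.17 ± 0.216 CPM in Y-Scr (0.74 ± 0.35, adjusted p = 0.0919), and was the only tested gene of the list with groups that did not overlap and Y-KO higher. Lynx1, a brake on acetylcholine receptors, stood at -0.07 ± 0.09. Lypd2 stood at -1.21 ± 0.51 (adjusted p = 0.0605), which passed without Y-Scr 1 (-1.43).

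Genes of the interferon receptors and their signalling chain, the chain through which Ly6a and Ly6c are known to be raised, were read next. The part of these genes in the changes of the Ly6 members was not tested. Of 14 tested, 8 fell and 2 rose, with a median of -0.67, and 71.4% were called, against 43.6% over all genes. Usp18, Irf7, Irf9, Stat2 and Irf1 were among the genes with the smallest adjusted p-values. Usp18, a brake on interferon signalling (-6.67 ± 0.20), and Irf7, a factor that drives interferon genes (-5.33 ± 0.19), had the most negative log2 fold changes of the list. The size of these changes rests on few Y-KO counts. Usp18 had 18 counts over the Y-KO libraries and 2003 over the Y-Scr libraries, and Irf7 had 35 and 1554. Usp18 passed the expression filter through its Y-Scr libraries alone. Irf9, a DNA-binding factor of the interferon response, averaged 7.22 ± 0.812 CPM in Y-KO and 61.0 ± 2.00 CPM in Y-Scr (SD, n = 3 each). The log2 fold changes were -3.08 ± 0.10 for Irf9, -1.43 ± 0.11 for Stat2 and -1.40 ± 0.07 for Irf1. The receptor genes moved less: Ifngr1 (-0.89 ± 0.08) and Ifngr2 (-0.44 ± 0.09) fell, Ifnar1 stood at 0.12 ± 0.08 and Ifnar2 at -0.26 ± 0.11, and the kinase genes Jak1 (0.27) and Tyk2 (0.33) rose. With edgeR, Ifnar2 had an adjusted p of 0.0529, and it passed among protein-coding genes alone (-0.27), with at least 1 CPM in 3 libraries (-0.26) and without Y-Scr 1 (-0.31).

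**Figure D4:**
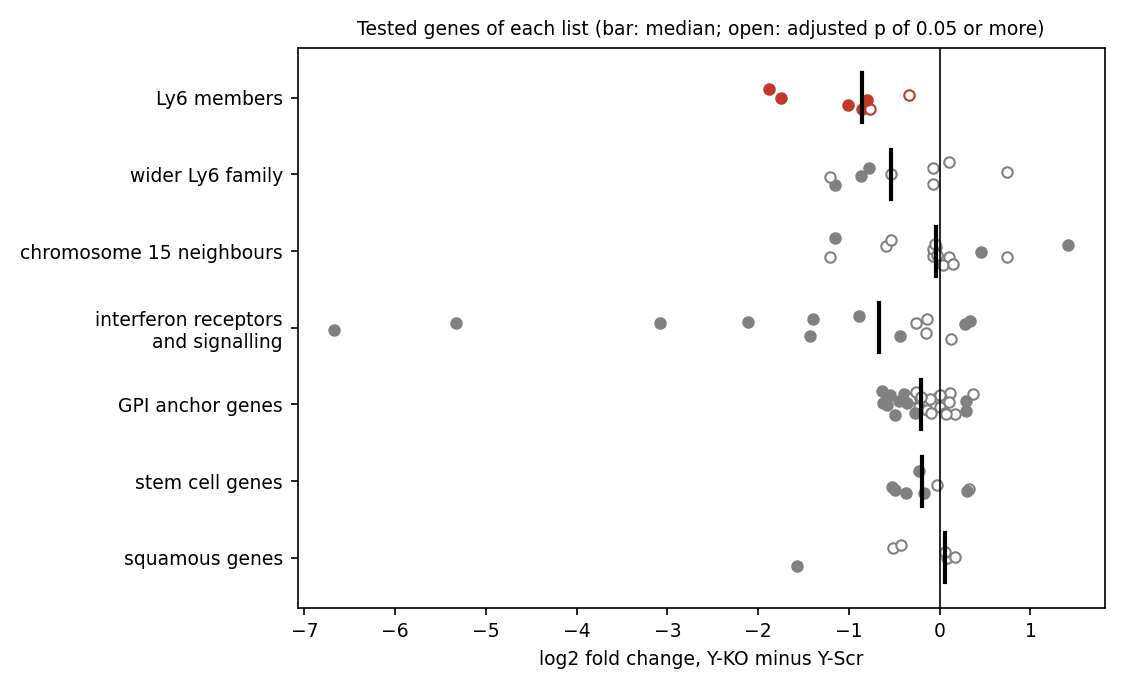
Log2 fold change (Y-KO minus Y-Scr) of every tested gene of each list, with a bar at the list's median and open points for adjusted p-values of 0.05 or more; Perp, a squamous gene at 0 counts in Y-Scr, is not drawn. The Ly6 members all lie below 0 (median -0.86), the interferon genes reach furthest down, and the chromosome 15 neighbours centre near 0 (median -0.04).

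Genes that build or act on the GPI anchor were called in either direction about as often as genes at large, at 41.4% against 43.6%. More of them fell than rose. Of 29 tested, 10 fell and 2 rose, while over all genes 23.0% were called lower and 20.7% higher. Of those that fell, Dpm2 (-0.08), Pgap3 (-0.33) and Pigx (-0.19) lost their calls with the trend on gene length removed. Dpm2 and Pgap3 lost theirs under other settings as well. Their median was -0.21, against -0.01 over all genes tested. The 6 with the smallest adjusted p-values were Mpdu1 (-0.64 ± 0.08), needed for the use of dolichol-linked mannose, Gdpd5 (-0.58 ± 0.10), which can release GPI-anchored proteins, and Pigp (-0.62 ± 0.12), Pigc (-0.50 ± 0.10), Pign (-0.39 ± 0.08) and Pigf (-0.55 ± 0.12), which act in the assembly of the anchor. Piga, whose product starts the pathway, stood at -0.01 ± 0.10, and the transamidase genes Pigt (0.06 ± 0.07) and Gpaa1 (0.07 ± 0.08) did not pass, though Gpaa1 passed with the trend on gene length removed (0.21). Of the 2 that rose, Pigs stood at 0.29 ± 0.08 and Pigo at 0.29 ± 0.11, and Pigo lost its call under several settings, among them without Y-KO 2 (0.23).

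Of the genes read beside Sca-1 in stem and progenitor cells, 8 of 16 were tested, and 5 fell and 1 rose (median -0.20), so that 75% were called, against 43.6% over all genes. Cd34, a surface protein gene of blood progenitors and endothelium, averaged 1168 ± 28.6 CPM in Y-KO and 1515 ± 69.4 CPM in Y-Scr and fell by 0.38 ± 0.06 (SE). Cd44, the hyaluronan receptor gene (-0.49 ± 0.06), Flt3, a receptor gene of blood progenitors (-0.53 ± 0.09), Sox9 (-0.23 ± 0.08) and Itgb1 (-0.17 ± 0.06) fell too, while Bmi1, a Polycomb gene, rose by 0.31 ± 0.07. The calls of Sox9 and Itgb1 were lost under several settings, among them without Y-KO 3 (-0.18 and -0.17). Kit, the other defining marker beside Sca-1 on blood stem cells, had 0 counts in Y-KO and 1 in Y-Scr, too few to test. In the squamous list, read because of Ly6d, 7 of 16 genes were tested, and 1 fell and 1 rose (median 0.06). The share called was 28.6%, against 43.6% over all genes. It includes Perp, the 1 that rose, which passed the expression filter only through its Y-KO libraries. Lamb3, a laminin chain gene, fell by 1.57 ± 0.08, and Perp, a gene of desmosomes, had 82 counts in Y-KO and 0 in Y-Scr, at least 29.4-fold higher against 3 counts over the Y-Scr group. With Perp set to that bound the list's median was the same, as it must be while Perp stays the highest of the 7.

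For the 4 members with a mean of at least 5 CPM, the genes with the most similar profile over the 6 libraries were sought among 10133 others, by the root mean square difference of mean-centred log2 levels. Nearest to Ly6a were Jun (0.035), Dynap (0.040) and Nbl1 (0.041), and nearest to Ly6c1 were Cyb5r1 (0.047), Ifitm3 (0.048) and Adm2 (0.049). Ly6c2 was followed by Ifi211 (0.11), Csrnp1 (0.11) and Trim21 (0.13), and Ly6g by Zfp729b (0.096), Gm4924 (0.12) and Ciart (0.12). Jun averaged 222 ± 3.52 CPM in Y-KO and 390.2 ± 13.4 CPM in Y-Scr, and Ifitm3 averaged 129.5 ± 6.26 CPM in Y-KO and 258 ± 32.7 CPM in Y-Scr (SD, n = 3 each). Adm2 is the only 1 of the 12 on chromosome 15. With only 2 groups of 3 libraries, such likeness mostly records a similar difference between groups.

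Changes in this comparison also followed gene length. In the shortest of 5 groups of about equal size, made from the tested genes, with deposited lengths of 57 to 1950 bases, the median log2 fold change was -0.14, and 24.7% were called lower. All members but Ly6c2 are in that group, and Ly6c2 is in the next, where the median was -0.11 and 30.8% were called lower. With each library's trend on length removed, Ly6a stood at -0.65, Ly6c1 at -0.80, Ly6c2 at -1.73, Ly6g at -0.60 and Ly6i at -1.54, and all 5 were still called.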

How the data were processed

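RNA was sequenced from 3 Y-KO and 3 Y-Scr libraries of MB49 cells. Per the labels' protocols, poly-A RNA was used with a stranded TruSeq kit. The authors deposited raw counts per gene, with no normalization, and a length per gene in bases. The submitters' processing notes list STAR 2.5.2b and featureCounts 1.5.3 next to Trimmomatic 0.39 and DESeq2, with FastQC 0.12.1 and MultiQC 1.13, and the builds GRCm39 and mm39. The roles of these tools and the strand setting are not given in the sources used here. Of 54495 gene IDs shared with GENCODE M21 (GRCm38), 98.3% had the same position, the 7 members among them, so positions are given as GRCm38.

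Counts were tested with R 4.3.3 and edgeR 4.0.16 (filterByExpr, TMM scaling, robust quasi-likelihood fit, group as the only term). SE was taken as the log2 fold change over the root of the F statistic. CPM and RPKM were computed here on TMM-scaled library sizes. Intervals and floors (3 counts) cover counting error only, since no source used here names molecular identifiers. No 2 libraries of a group agreed within counting noise, with chi-square over its degrees of freedom at 3.55 to 16.

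The members and lists were chosen with earlier results of these data known. Named were all members, wider family genes with at least 1 CPM in a group, up to 6 called genes per list by adjusted p (1 of which is not reported here), tested neighbours within 200 kb, the 3 most similar genes per member with at least 5 CPM (log2 of CPM + 0.5) and 4 Y genes. Other genes were named after their values were seen, as were the ratios to Ly6a. Other settings were RLE and upper-quartile factors, DESeq2 1.42.0, limma-voom (limma 3.58.1), other filters, protein-coding genes alone, a block for the replicate number, 1 library left out at a time, Ly6c1 and Ly6c2 summed and, added after the data were seen, the trend on gene length removed (natural spline with 4 degrees of freedom). The edgeR test was tested on simulated data. Protein sequences were not used here.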

Additional observations from a re-analysis of the deposited data

How the results depend on the processing

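Of 225 recomputed values, 223 kept their direction and their side of the threshold, or for counts stayed within 1.5 times. The exceptions were Ly6i, which without Y-KO 3 stood at -1.44 (adjusted p = 0.0568 with edgeR), and the chromosome 15 neighbours, of which 6 in place of 3 were called with the trend on gene length removed, an alternative chosen after seeing the data. Leaving out each library in turn gave -0.87 to -0.84 for Ly6a, -1.06 to -0.94 for Ly6c1, -2.03 to -1.72 for Ly6c2, -0.99 to -0.61 for Ly6g, -2.18 to -1.44 for Ly6i, -1.03 to -0.54 for Ly6f and -0.51 to -0.003 for Ly6d, 4 to 5 members called and 2 to 4 neighbours called. The cause of the change in Ly6i was not tested. With at least 1 CPM in 3 libraries, Ly6i and Ly6f were not tested. Ly6c1 and Ly6c2 summed was entered among the 225 values for each of the 2 genes, and at -1.02 it does not test Ly6c2 alone. In the fit with the replicate number as a block (replicate block), Ly6a stood at -0.86, Ly6c1 at -1.002, Ly6c2 at -1.89, Ly6g at -0.82, Ly6i at -1.77, Ly6f at -0.77 and Ly6d at -0.29, with 5 members and 4960 genes called. Libraries with the same number did not deviate together (correlations of -0.064, -0.034 and -0.024), so the numbers give no pairing, and no Y-KO library correlated best with the Y-Scr library of its own number. Counts were lowest for Ly6d, Ly6f and Ly6i, with 38 to 70 counts per group apart from 17 for Ly6i in Y-KO. The counting interval of the ratio included 1 for Ly6d and not for Ly6f or Ly6i. That interval leaves out the spread between libraries, and Ly6f was called under no setting that tested it.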
